A study of Caenorhabditis elegans with 15 samples.

Results

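The genes described here are 8 enzymes of the tricarboxylic acid (TCA) and glyoxylate cycles of Caenorhabditis elegans, measured by RNA-seq of whole worms. They were chosen by name as the rows of the FPKM table (fragment counts divided by gene length and library total) for icl-1, cts-1, aco-2, idha-1, ogdh-1, fum-1, mdh-1 and mdh-2, and they are 8 of 46906 genes in that table. All 8 were above the filter on low values, as were 13743 of the 46906 genes. The 7 genes other than icl-1 are called TCA enzymes here, and the question was how icl-1 compares with them after each plant extract. mdh-1 is counted among the 7 although its enzyme is cytosolic.

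The 3 groups of wild-type N2 worms compared here had 5 libraries each, labelled as biological replicates. Every group was fed E. coli OP50, moved as untreated L4 larvae to plates with 2 mg/mL carbenicillin and 100 µM 5-fluorodeoxyuridine (FUdR, which stops progeny production), kept at 22 °C and collected on day 12 of adulthood. The control group received 0.05% DMSO, the C. chinensis group received 30 µg/mL of Cuscuta chinensis seed extract dissolved in DMSO, and the E. ulmoides group received 30 µg/mL of Eucommia ulmoides bark extract dissolved in DMSO. Each tube pooled about 3000 to 4000 whole animals, so the values are averages over tissues and individuals. Fewer cells of a type and less RNA per cell cannot be told apart in such samples.

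As background, the TCA cycle joins acetyl-CoA to oxaloacetate as citrate and oxidises it in mitochondria, releasing carbon dioxide and feeding electrons to the respiratory chain. The glyoxylate cycle shares several of its reactions but skips the steps that release carbon dioxide, so that acetyl units from fat can be built into carbohydrate. Most animals lack this bypass, whereas C. elegans encodes isocitrate lyase and malate synthase as a single bifunctional protein, ICL-1, and is known to use it in embryos and dauer larvae. Isocitrate is the branch point, used either by isocitrate dehydrogenase in the TCA cycle or by isocitrate lyase in the glyoxylate cycle.

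The libraries held between 37920765 and 87238546 fragments, with group medians of 45859124 for DMSO, 43831145 for C. chinensis and 44644089 for E. ulmoides. Every member was deeply covered, from 5591 fragments for mdh-2 in its lowest library to 64797 for cts-1 in its highest. In WBcel235 with the Ensembl 115 annotation, icl-1 (WBGene00001564) lies on chromosome V from 724332 to 728004 on the minus strand. On chromosome III lie cts-1 (10214771 to 10216635), aco-2 (7973717 to 7977355), fum-1 (7465605 to 7467640) and mdh-2 (6606544 to 6608106). mdh-1 is on chromosome V (6515283 to 6516526), ogdh-1 on chromosome IV (4696979 to 4704011) and idha-1 on chromosome I (8606549 to 8608631). Exons of 4 TCA enzymes share bases with exons of a protein-coding gene on the opposite strand, and no source states that strand was used in counting. The overlaps are 60 bases between cts-1 and best-18, 97 between aco-2 and C06G4.4, 26 between idha-1 and F43G9.13, and 67 between fum-1 and H14A12.5. These neighbours held at most 1161 fragments in any library.

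All levels below are scaled FPKM, the deposited FPKM divided by a factor per library that ranged from 0.873 to 1.16, and the 5 values of a group are given in the order of replicates 1 to 5. Differences are log2 fold changes with their standard error (SE) from limma on log2(scaled FPKM + 0.5) over all 15 libraries, which understates the change of low genes. A gene was called at an adjusted p under 0.05, either alone or together with a fold above 1.5 or below its reciprocal.

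In the DMSO worms, by scaled FPKM, the TCA enzymes stood above icl-1 with the exception of mdh-2. Citrate synthase (cts-1, WBGene00000833), which makes citrate, was the most abundant at 421 ± 9.94 scaled FPKM (SD, n = 5). The cytosolic malate dehydrogenase mdh-1 (WBGene00018491) followed at 201, above aco-2 in every library. Mitochondrial aconitase (aco-2, WBGene00000041), which converts citrate to isocitrate, and fumarase (fum-1, WBGene00001503), which makes malate, had overlapping ranges around means of 176 and 169.7. Below them came idha-1 (WBGene00009664), a subunit of the NAD-dependent isocitrate dehydrogenase, at 134 and ogdh-1 (WBGene00020679), the first component of the 2-oxoglutarate dehydrogenase complex, at 116. icl-1 at 100.1 and the mitochondrial malate dehydrogenase mdh-2 (WBGene00003162) at 92.3 closed the order, and their ranges overlapped. Across all tested genes cts-1 ranked 213th, icl-1 1473rd and mdh-2 1628th by mean level in DMSO.

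icl-1 was the member with the largest difference after C. chinensis treatment and the only member called with the fold limit in that comparison. Its level in DMSO was 93.8, 114.6, 101, 91.5 and 99.8 scaled FPKM. With C. chinensis it was 252, 213, 197, 196 and 291 scaled FPKM. With E. ulmoides it was 117, 108, 109, 127 and 118 scaled FPKM. The 5 C. chinensis libraries lay above all 10 others, while the E. ulmoides range overlapped the DMSO range. The mean rose from 100.1 ± 9.01 to 230 ± 40.8 scaled FPKM (SD, n = 5), a log2 fold change of 1.18 ± 0.10 (SE) or 2.27-fold, with an adjusted p of 1.3e-07 by limma. The exact two-sided permutation test of the same 5 against 5 libraries gave p = 0.0079, the smallest it can give.

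The rise of icl-1 kept its call when any library was left out, with log2 fold changes between 1.08 and 1.24, and across the other scalings, filters and fits tried it lay between 1.16 and 1.46. Among all tested genes it ranked 533rd of 13743 by log2 fold change in this comparison. By level, icl-1 moved from rank 1473 among tested genes in DMSO to rank 402 with C. chinensis, and it was at rank 1345 with E. ulmoides. The C. chinensis group was also the least uniform, with a coefficient of variation of 17.8% for icl-1 against 9.003% in DMSO and 6.72% in E. ulmoides.

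**Figure D1:**
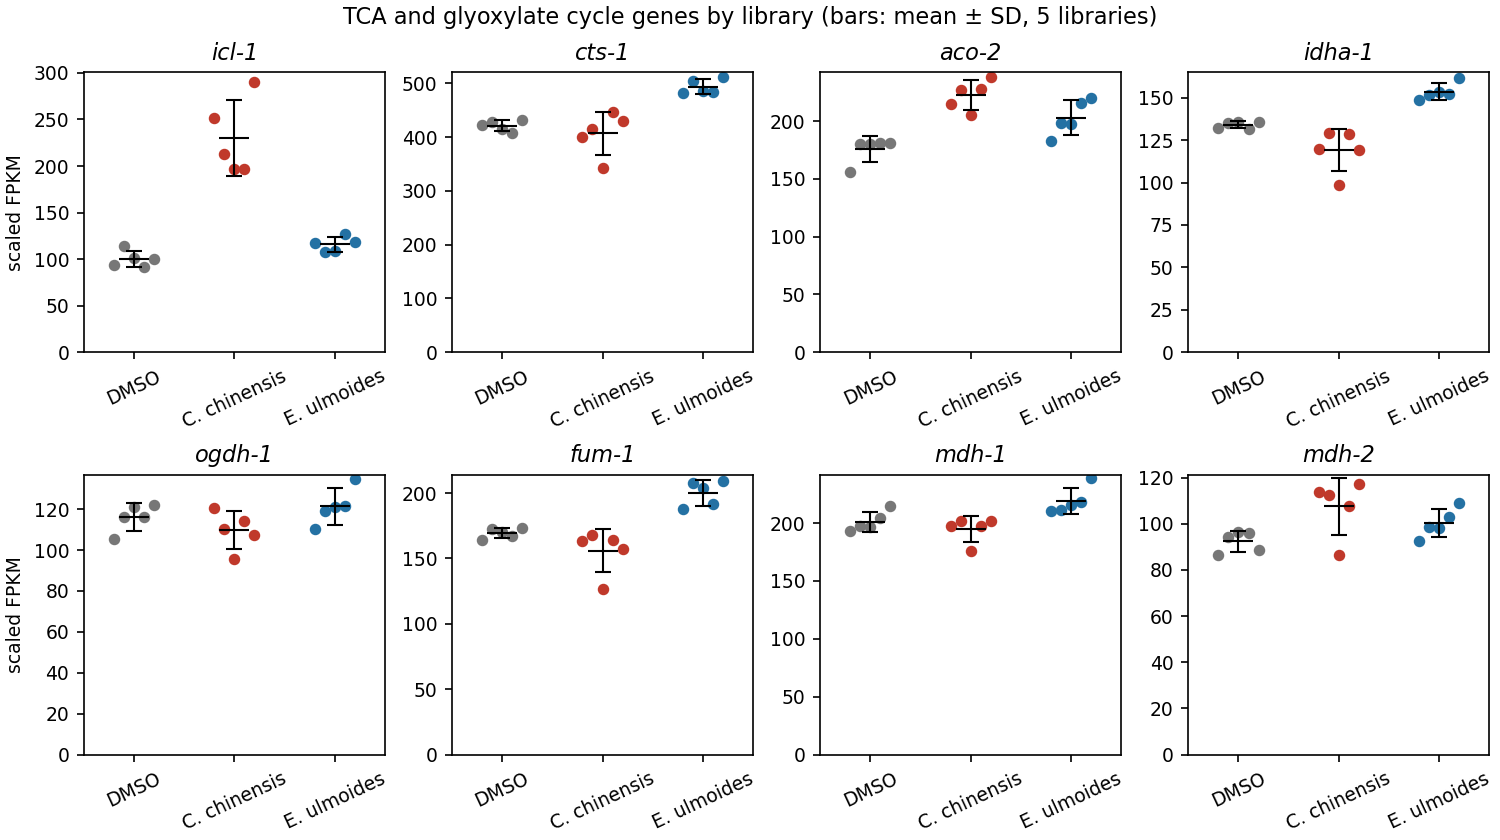
Scaled FPKM (vertical axes, each from 0) of the 8 genes in the DMSO, C. chinensis and E. ulmoides libraries. Each point is 1 library, and the bars give the mean ± SD of 5 libraries. icl-1 lies between 196 and 291 with C. chinensis and between 91.5 and 127 in the 10 other libraries, whereas the TCA enzymes differ by much less.

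Because small differences depend on how libraries are scaled to each other, icl-1 was also set against the TCA enzymes within each library, where the scaling cancels. Its share of the summed FPKM of the 8 genes was 6.93, 7.97, 7.11, 6.56 and 6.89% in DMSO. The share was 15.9, 13.5, 14.8, 12.4 and 17.5% with C. chinensis. It was 7.64, 6.76, 6.88, 7.89 and 6.92% with E. ulmoides. The C. chinensis shares were all above the others, and those of E. ulmoides fell within the DMSO range. Within single libraries icl-1 ranked 7th or 8th of the 8 genes in DMSO, 6th or 7th with E. ulmoides and 2nd to 4th with C. chinensis. These ranks also rest on the gene lengths behind the FPKM.

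**Figure D2:**
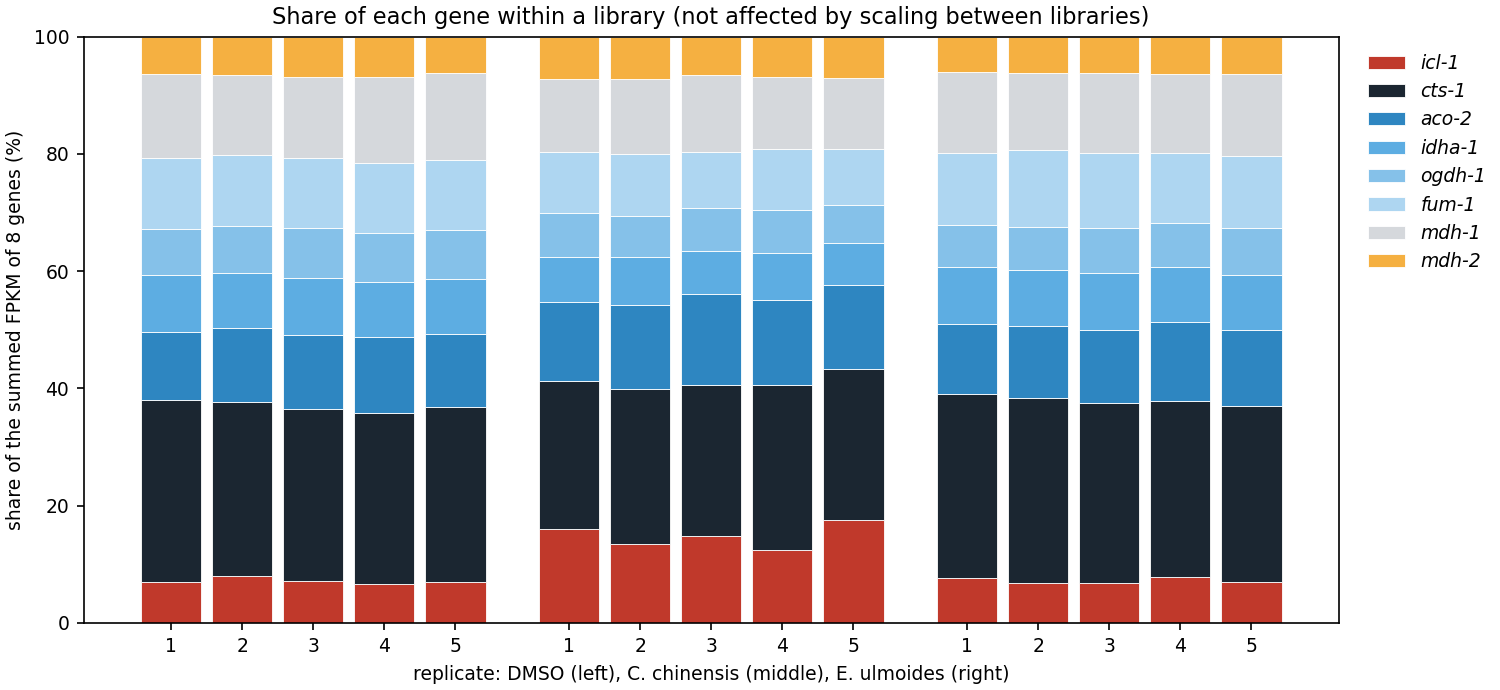
Share of each of the 8 genes in their summed FPKM (percent, stacked to 100) for each library, with DMSO at left, C. chinensis in the middle and E. ulmoides at right. The icl-1 segment at the foot of each bar takes 12.4 to 17.5% in the C. chinensis libraries and 6.56 to 7.97% in the others.

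Set against the mean log2 FPKM of the 7 TCA enzymes, icl-1 was lower in every DMSO library, by −0.76, −0.56, −0.75, −0.87 and −0.78. It was higher in every C. chinensis library, by 0.55, 0.28, 0.45, 0.16 and 0.74, and again lower in every E. ulmoides library, by −0.59, −0.79, −0.77, −0.56 and −0.77. The C. chinensis mean was thus 1.18 above the DMSO mean on the log2 scale, a 2.26-fold shift of icl-1 relative to the TCA enzymes. Between E. ulmoides and DMSO the means differed by 0.05 and the ranges overlapped. This score over chosen members is a description and was not tested.

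The shift held against each TCA enzyme by itself, with non-overlapping groups for all 7 ratios, and its size followed the enzyme chosen. It was widest against idha-1, at a log2 difference of 1.36. The ratio of icl-1 to idha-1 went from 0.74 in DMSO to 1.92 with C. chinensis. idha-1 encodes 1 subunit of the isocitrate dehydrogenase that competes with ICL-1 for isocitrate. Another subunit, idhb-1, rose relative to idha-1 by 0.49 on the log2 scale, so the ratio describes idha-1 and not the whole enzyme. The shift was narrowest against aco-2, the enzyme just before the branch point, at 0.85. The ratio of icl-1 to aco-2 was 0.57 in DMSO, 1.02 with C. chinensis and 0.57 with E. ulmoides. The other log2 differences were 0.97 for mdh-2, 1.23 for mdh-1, 1.24 for cts-1, 1.27 for ogdh-1 and 1.31 for fum-1.

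Among the 8 members, C. chinensis treatment gave 1 call higher and 0 lower with the fold limit, beside 16.9% of all tested genes called higher and 3.49% lower. At the adjusted p alone, 3 members were higher and 1 was lower, beside 30.2% and 37.2% of all tested genes. At an unadjusted p under 0.05 limma gave 4 members, and voom gave the same counts as limma. The groups did not overlap for 2 members that were higher and 1 that was lower, beside 23.1% and 27% of all tested genes. Counts near these shares are not a result about the cycle. The median log2 fold change of the 7 TCA enzymes was −0.05, ranging from −0.18 to 0.34, and that of all tested genes was −0.09.

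The entry into the cycle showed a split between citrate synthase and aconitase. cts-1 was at 422, 428, 416, 407 and 433 scaled FPKM in DMSO and at 400.2, 416, 343, 447 and 429 with C. chinensis. The ranges overlapped and the log2 fold change was −0.05 ± 0.06 (SE), with a 95% interval from −0.18 to 0.07 and an adjusted p of 0.44 by limma. aco-2 was at 156, 180.4, 180.5, 181 and 181 scaled FPKM in DMSO and at 215, 227, 205, 228 and 238 with C. chinensis. Every C. chinensis library was above every DMSO library, and aco-2 rose by a log2 fold change of 0.34 ± 0.06 (SE) or 1.27-fold, with an adjusted p of 0.00016. It was called higher under every setting tried and with any single library left out, from 0.30 to 0.62. Within libraries the log2 ratio of aco-2 to cts-1 was 0.40 higher than in DMSO, with no overlap, whereas E. ulmoides and DMSO differed by −0.02.

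After the branch point idha-1 went the other way on the main scaling, whereas other isocitrate dehydrogenase genes moved in both directions, as given below. idha-1 was at 132, 135, 136, 132 and 136 scaled FPKM in DMSO, the tightest group of any member. With C. chinensis it was at 119.5, 129, 98.6, 129 and 119.3. All 5 values were below all DMSO values, and idha-1 fell by 0.18 ± 0.06 (SE) on the log2 scale, with an adjusted p of 0.020 by limma. This call was lost under 6 of 13 settings, with no further scaling and with median-of-ratios scaling among them, and its direction turned with quantile normalization (0.02) and with scaling over abundant genes (0.10). Relative to cts-1 in the same library the log2 ratio differed from DMSO by −0.12, again with no overlap between the groups. The nearest values were close, at −1.684 in C. chinensis replicate 2 and −1.673 in DMSO replicate 5. The log2 ratio of aco-2 to idha-1, the enzymes on either side of isocitrate, was 0.39 in DMSO and 0.91 with C. chinensis.

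For ogdh-1 the DMSO values were 105, 116, 121, 116 and 122 scaled FPKM and the C. chinensis values were 121, 110.2, 95.8, 114 and 107. The groups overlapped and the log2 fold change was −0.08 ± 0.07 (SE, adjusted p = 0.28 by limma). For fum-1 the DMSO values were 164, 173, 171, 167.5 and 173 scaled FPKM and the C. chinensis values 163, 168, 127, 164.5 and 157, where replicate 3 stood far below. Its log2 fold change was −0.13 ± 0.07 (SE, adjusted p = 0.10 by limma). Neither gene was called when any library was left out, and both differences became positive with no further scaling, at 0.07 for ogdh-1 and 0.03 for fum-1. With scaling over abundant genes both were called higher (0.20, adjusted p = 0.0034 for ogdh-1 and 0.15, adjusted p = 0.019 for fum-1), as was cts-1 (0.23, adjusted p = 0.0015).

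The malate dehydrogenases differed from each other. mdh-1, the cytosolic enzyme, was at 193, 197, 196, 204 and 215 scaled FPKM in DMSO and at 198, 202, 176, 197 and 202 with C. chinensis. These overlapped and the log2 fold change was −0.05 ± 0.05 (SE, adjusted p = 0.47 by limma), but mdh-1 was called higher with no further scaling (0.11, adjusted p = 0.023), with a mean FPKM of at least 5 (0.11, adjusted p = 0.046) and with scaling over abundant genes (0.24, adjusted p = 0.00021). mdh-2, the mitochondrial enzyme that regenerates oxaloacetate, was at 86.4, 94.3, 96.4, 95.8 and 88.6 scaled FPKM in DMSO and at 114, 112.5, 86.5, 108 and 117 with C. chinensis. Of the 5 C. chinensis libraries 4 were above every DMSO library, and replicate 3 was within their range. mdh-2 rose by a log2 fold change of 0.21 ± 0.07 (SE, adjusted p = 0.018 by limma). The call was lost without C. chinensis replicate 2 (adjusted p = 0.067) or replicate 5 (adjusted p = 0.088) and with no filter on low values (adjusted p = 0.071), while the direction held under every scaling. Within libraries the log2 ratio of mdh-2 to mdh-1 was −1.12 in DMSO, −0.87 with C. chinensis and −1.13 with E. ulmoides. The DMSO and C. chinensis ranges did not overlap but nearly touched, at −1.026 in DMSO replicate 3 and −1.021 in C. chinensis replicate 3.

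**Figure D3:**
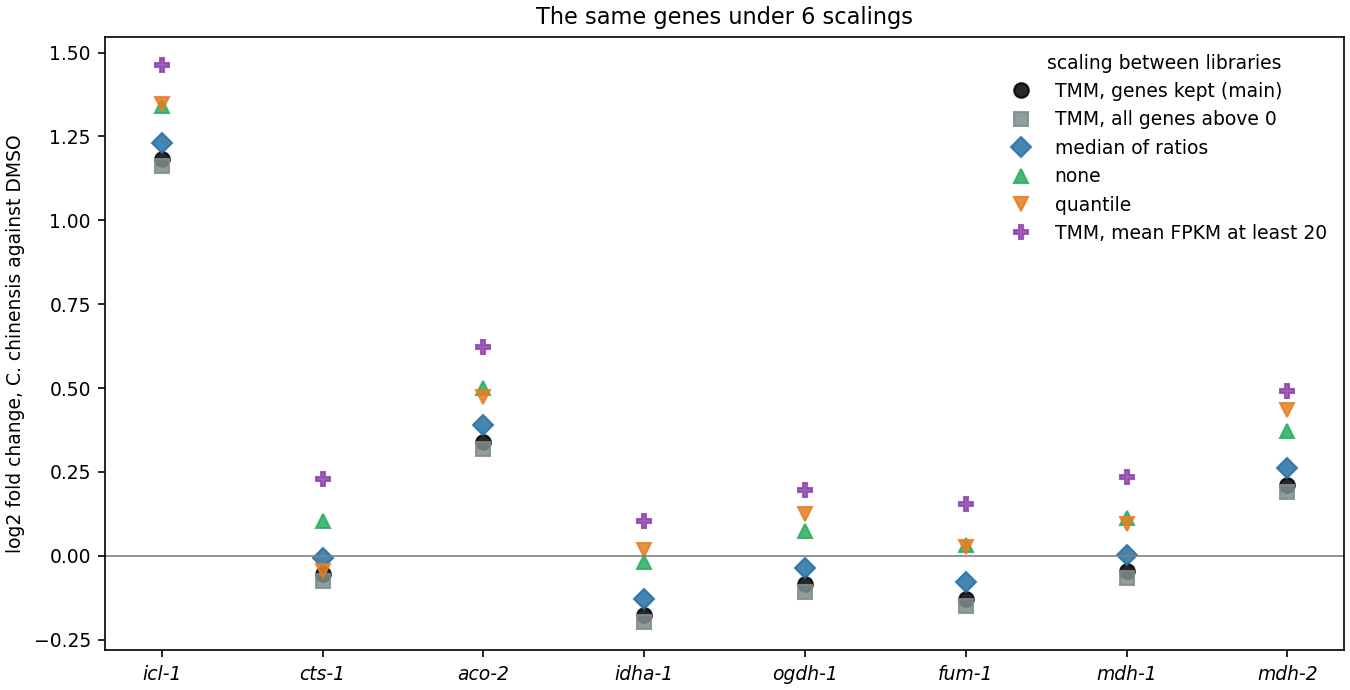
Log2 fold change of the 8 genes between C. chinensis and DMSO (vertical axis) under 6 ways of scaling the libraries to each other, where TMM is the trimmed mean of M values. icl-1, aco-2 and mdh-2 stay above 0 under all 6, whereas cts-1, idha-1, ogdh-1, fum-1 and mdh-1 lie on either side of 0.

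Scalings that apply a factor per library moved all points together and kept the order of the members, whereas quantile normalization moved each gene by its own amount. The median of all tested genes moved too, from −0.09 with the main scaling to 0.06 with no further scaling and 0.17 with scaling over genes of a mean FPKM of at least 20. On each of these scalings icl-1 stood above that median by more than 1 log2 unit, and on the main scaling the median of the 8 members was 0.04 above it.

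E. ulmoides treatment, compared with the same DMSO libraries, left the proportions among the 8 genes close to those in DMSO. With the fold limit limma called 0 members higher and 0 lower, beside 1.11% and 0.109% of all tested genes, and voom also called 0 in each direction. At the adjusted p alone it called 1 higher and 0 lower, beside 4.68% and 0.335% of all tested genes. At an unadjusted p under 0.05 there were 6, all higher. On the main scaling the E. ulmoides libraries lay above all DMSO libraries for 4 members and below for 0, beside 7.86% and 1.06% of all tested genes. In the deposited FPKM, with no further scaling, the ranges of all 4 overlapped those of DMSO.

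The called gene was cts-1, at 481, 504, 486, 483.5 and 512 scaled FPKM. All 5 values were above the DMSO range on the main scaling, and the log2 fold change was 0.23 ± 0.06 (SE, adjusted p = 0.040 by limma). That call was lost in 13 of the 15 fits that left out a library, and under 9 of 13 settings, each other scaling and voom among them. fum-1 at 187.5, 208, 204, 192 and 209 scaled FPKM had a log2 fold change of 0.24 and just missed the threshold at an adjusted p of 0.0504 by limma. aco-2 at 183, 198, 198, 216 and 220 (0.21, adjusted p = 0.064 by limma) and idha-1 at 148.5, 151.5, 153.5, 152 and 162 (0.19, adjusted p = 0.078 by limma) also lay above the DMSO range on the main scaling without passing. The 8 log2 fold changes were between 0.06 and 0.24 and that of all tested genes had a median of 0.07. Without further scaling the direction turned for ogdh-1 (−0.09), mdh-1 (−0.03) and mdh-2 (−0.03).

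For icl-1 the log2 fold change with E. ulmoides was 0.21 ± 0.10 (SE), with a 95% interval from 0.01 to 0.42 and an adjusted p of 0.20 by limma. It was not called under any setting, where it ranged from 0.06 to 0.21. The interval with C. chinensis ran from 0.98 to 1.39. The remaining members, ogdh-1 at 110.2, 119.1, 121, 121.5 and 135 scaled FPKM, mdh-1 at 211, 211.5, 216, 218 and 239 and mdh-2 at 92.55, 98.4, 98.0, 103 and 109, overlapped the DMSO range.

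**Figure D4:**
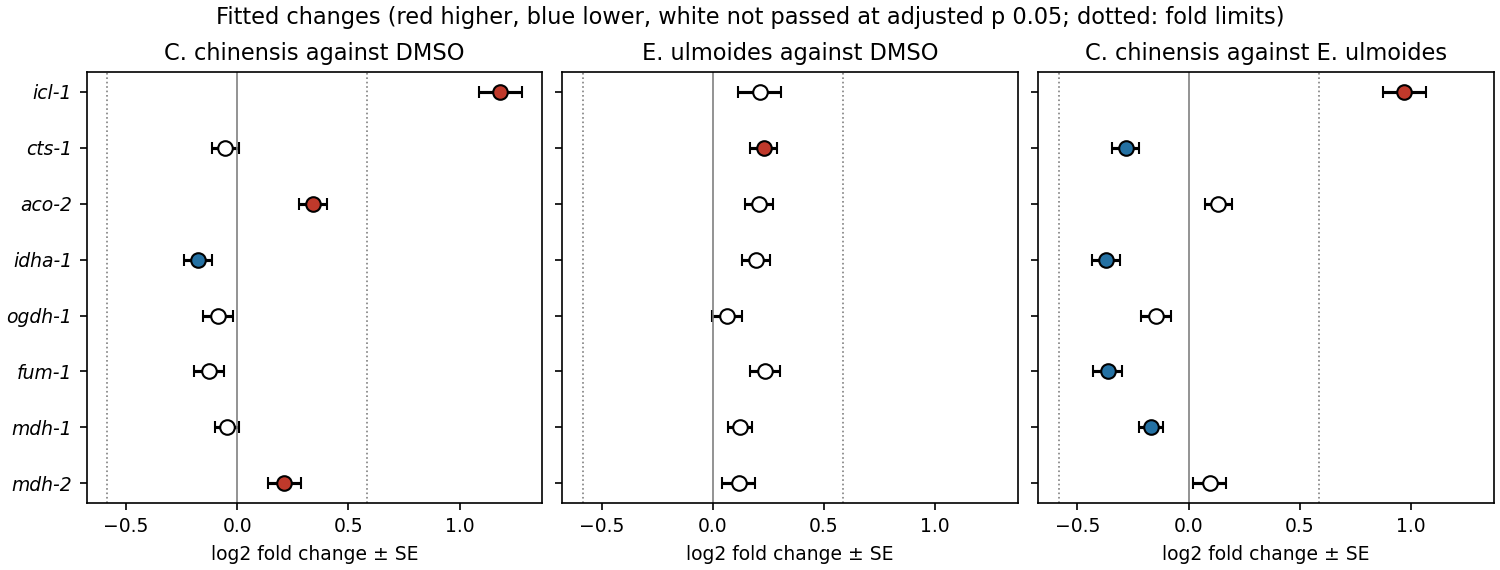
Log2 fold changes ± SE of the 8 genes in the 3 comparisons on the main scaling, where red is higher and blue lower at an adjusted p under 0.05, white is not passed, and dotted lines mark the fold limits. icl-1 lies past the upper limit at 1.18 against DMSO and 0.97 against E. ulmoides. The smaller differences depend on the scaling, and the signs of cts-1, idha-1, ogdh-1, fum-1 and mdh-1 between C. chinensis and either other group turn under at least 1 other scaling, as do those of ogdh-1, mdh-1 and mdh-2 between E. ulmoides and DMSO.

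The extracts were also compared directly at the same 30 µg/mL and day, a comparison that shares its C. chinensis libraries with the comparison against DMSO. icl-1 was 1.96-fold higher with C. chinensis than with E. ulmoides, a log2 difference of 0.97 ± 0.10 (SE, adjusted p = 5.5e-07 by limma). It was the 1 member called higher with the fold limit and 0 were lower, beside 13.2% and 9.56% of all tested genes. At the adjusted p alone 1 was higher and 4 were lower, beside 29.4% and 37.8%. At an unadjusted p under 0.05 limma gave 7, and voom gave 1 and 0 with the fold limit. The groups did not overlap for those same 5 genes, 1 higher and 4 lower, beside 20.8% and 28.9% of all tested genes.

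The 4 lower genes were cts-1 (−0.28, adjusted p = 0.00051), idha-1 (−0.37, adjusted p = 5.9e-05), fum-1 (−0.36, adjusted p = 0.00013) and mdh-1 (−0.17, adjusted p = 0.011), all by limma. With no further scaling none of these 4 was called lower, and the count of members called higher went from 1 to 5. aco-2 (0.13, adjusted p = 0.067), mdh-2 (0.10, adjusted p = 0.27) and ogdh-1 (−0.15, adjusted p = 0.063) were not called by limma on the main scaling, but other settings called each of them higher. This held for aco-2 under 10 of 13 settings, at 0.44 with no further scaling (adjusted p = 5.1e-06) and 0.53 with scaling over abundant genes (adjusted p = 2.3e-06), and in 10 of the 15 fits that left out a library. It held for mdh-2 under 4 of 13 settings, at 0.40 with no further scaling (adjusted p = 9.7e-05), and for ogdh-1 under 3 of 13, at 0.16 with no further scaling (adjusted p = 0.023). mdh-1, lower on the main scaling, was called higher with no further scaling (0.14, adjusted p = 0.0062) and with scaling over abundant genes (0.23, adjusted p = 0.00027). The ratio of icl-1 to the mean of the TCA enzymes differed by 1.13 on the log2 scale between the extracts, with every C. chinensis library above every E. ulmoides library.

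The wider cycle was described with 18 further genes, subunits and isoenzymes of the same steps. With C. chinensis, 5 of the 18 were higher and 7 lower at the adjusted p alone, and 0 passed the fold limit in either direction (13 had an unadjusted p under 0.05 by limma, and voom also gave 0 past the fold limit). Of all tested genes 30.2% were higher and 37.2% lower at the adjusted p alone, and 16.9% and 3.49% with the fold limit, so the counts at the adjusted p are near the background and are not a result about the wider cycle. Their median log2 fold change was −0.07, from −0.39 to 0.50. On the scaling over abundant genes 11 were higher and 0 lower and 2 passed the fold limit, so the direction of the group depended on the scaling. Genes called higher under all 13 settings with every library were the isocitrate dehydrogenase subunit idhb-1 (0.31), the NADP-dependent mitochondrial isocitrate dehydrogenase idh-2 (0.27), the cytosolic aconitase aco-1 (0.24) and the succinyl-CoA ligase subunit sucl-1 (0.23). The largest difference was for idhg-2 (0.50), which is low, at 2.17 scaled FPKM in DMSO.

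The lower genes on the main scaling were idh-1, the cytosolic isocitrate dehydrogenase (−0.39), the succinate dehydrogenase subunits sdhb-1 (−0.39), sdha-2 (−0.30) and sdhd-1 (−0.19), idhg-1 (−0.26), dlst-1 (−0.20) and sucl-2 (−0.17). Of these idhg-1, dlst-1, sucl-2 and sdhd-1 turned positive under the scaling over abundant genes. The subunits of the NAD-dependent isocitrate dehydrogenase did not move together. In scaled FPKM, idhb-1 was at 22.9, 20.9, 21.9, 23.25 and 21.2 in DMSO and at 29.4, 27.15, 23.2, 25.85 and 32.3 with C. chinensis. Within libraries the log2 ratio of idhb-1 to idha-1 was 0.49 higher than in DMSO, without overlap, while that of idhg-1 to idha-1 overlapped between the groups. idhb-1 remained the scarcer subunit, at 0.23 of idha-1 with C. chinensis against 0.16 in DMSO.

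With E. ulmoides, 5 of the 18 genes were higher and 0 lower at the adjusted p alone (sucl-2, sucg-1, dld-1, suca-1 and idhg-1, with log2 fold changes from 0.23 to 0.28), and 0 passed the fold limit. At an unadjusted p under 0.05 limma gave 11, and with voom 0 genes passed the fold limit. Of all tested genes 4.68% were higher and 0.335% lower at the adjusted p alone. The 5 calls fell to 0 with no further scaling, quantile normalization, no filter on low values and a mean FPKM of at least 5. They also fell to 0 with voom and with scaling over all genes above 0 or over abundant genes. They fell to 1 with median-of-ratios scaling and with the replicate block, and to 3 with only the 2 groups compared. The other pseudocounts kept 5. Between the extracts, 2 were higher and 11 lower with C. chinensis, beside 29.4% and 37.8% of all tested genes, and only sdhb-1, the iron-sulfur subunit of succinate dehydrogenase, passed the fold limit (−0.63 ± 0.11 SE, adjusted p = 5.1e-05 by limma). It was at 159, 167.5, 119.6, 159.9 and 147.6 scaled FPKM with C. chinensis, at 234.9, 307, 227, 196 and 209.6 with E. ulmoides and at 214, 198, 184, 187.5 and 197 in DMSO. E. ulmoides replicate 2 at 307 stood apart, and the fold limit was missed without that library, without 5 others left out in turn, and under 6 of the 13 settings. With the scaling over abundant genes the call at the adjusted p was lost as well (adjusted p = 0.051 by limma).

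The reactions that feed and drain the cycle were described with 14 more genes, and here the largest rises after C. chinensis treatment were in the pck genes. In this list 3 passed the fold limit with C. chinensis and 0 were lower, while at the adjusted p alone 3 were higher and 5 lower (8 had an unadjusted p under 0.05 by limma, and voom gave the same counts). The shares of all tested genes were 16.9% and 3.49% with the fold limit and 30.2% and 37.2% at the adjusted p alone, and the counts of the list are near them. Phosphoenolpyruvate carboxykinase, which turns oxaloacetate into phosphoenolpyruvate at the start of gluconeogenesis, is encoded by pck-1 and pck-2. In scaled FPKM, pck-1 was at 6.22, 12.6, 10.1, 9.24 and 7.85 in DMSO and at 25.2, 29.4, 21.6, 22.5 and 39.0 with C. chinensis. pck-2, the more abundant gene, was at 164, 196, 186, 199 and 198 in DMSO and at 311, 304, 311, 284 and 356 with C. chinensis. Neither gene's groups overlapped, and pck-1 rose by a log2 fold change of 1.53 ± 0.16 (SE, adjusted p = 1.1e-06 by limma) and pck-2 by 0.73 ± 0.07 (SE, adjusted p = 2.4e-07 by limma).

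Both calls held under all 13 settings and with any single library left out. Within libraries the log2 ratio of pck-2 to cts-1 was 0.79 higher than in DMSO, with no overlap. The third was got-1.2, an aspartate aminotransferase that interconverts oxaloacetate and aspartate, at 9.98, 9.79, 8.55, 9.78 and 9.14 scaled FPKM in DMSO and at 14.6, 14.4, 15.1, 12.7 and 18.1 with C. chinensis. It rose by 0.63 ± 0.09 (SE, adjusted p = 1.5e-05 by limma). The fold limit was missed with quantile normalization (0.51) and without DMSO replicate 3 or C. chinensis replicate 5, while the call at the adjusted p held throughout.

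On the pyruvate side the calls depended on the scaling. On the main scaling 5 genes were lower, the pyruvate dehydrogenase acetyltransferase dlat-1 (−0.30), the pyruvate dehydrogenase phosphatase pdp-1 (−0.34), the mitochondrial pyruvate carrier genes mpc-1 (−0.32) and mpc-2 (−0.26) and malic enzyme men-1 (−0.19), and all 5 calls were lost with the scaling over abundant genes, under which mpc-2 (0.02) and men-1 (0.09) turned positive. The pyruvate dehydrogenase subunits pdha-1 (−0.09, adjusted p = 0.14 by limma) and pdhb-1 (−0.07, adjusted p = 0.28 by limma), pyruvate carboxylase pyc-1 (−0.04, adjusted p = 0.64 by limma) and glutamate dehydrogenase gdh-1 (0.01, adjusted p = 0.94 by limma) did not pass on the main scaling. With scaling over abundant genes 9 of the 14 were higher and 0 lower, and pdha-1 (0.19), pdhb-1 (0.21), pyc-1 (0.24) and gdh-1 (0.29) were among those called higher.

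With E. ulmoides, 4 of the 14 were higher and 0 lower at the adjusted p alone and 0 passed the fold limit (9 had an unadjusted p under 0.05 by limma, and voom gave 0 past the fold limit). Of all tested genes 4.68% were higher and 0.335% lower at the adjusted p alone. The 4 were pdhb-1 (0.33), pck-2 (0.25), gdh-1 (0.23) and pdha-1 (0.21). The count fell to 0 with no further scaling and with no filter on low values, and to 1 under 8 other settings. pdhb-1 was called under 11 of 13 settings, and gdh-1 and pdha-1 under 3 each. pck-2 was at 213, 218, 224.5, 238 and 223 scaled FPKM with E. ulmoides, above the DMSO range and below the C. chinensis range, and its call was lost under 10 of 13 settings. pck-1 at 13.2, 11.7, 10.3, 13.1 and 12.4 scaled FPKM overlapped DMSO. Between the extracts pck-1 passed the fold limit (1.12 ± 0.16 SE, adjusted p = 1.4e-05 by limma), and pck-2 (0.48) and got-1.2 (0.49) were higher at the adjusted p alone.

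**Figure D5:**
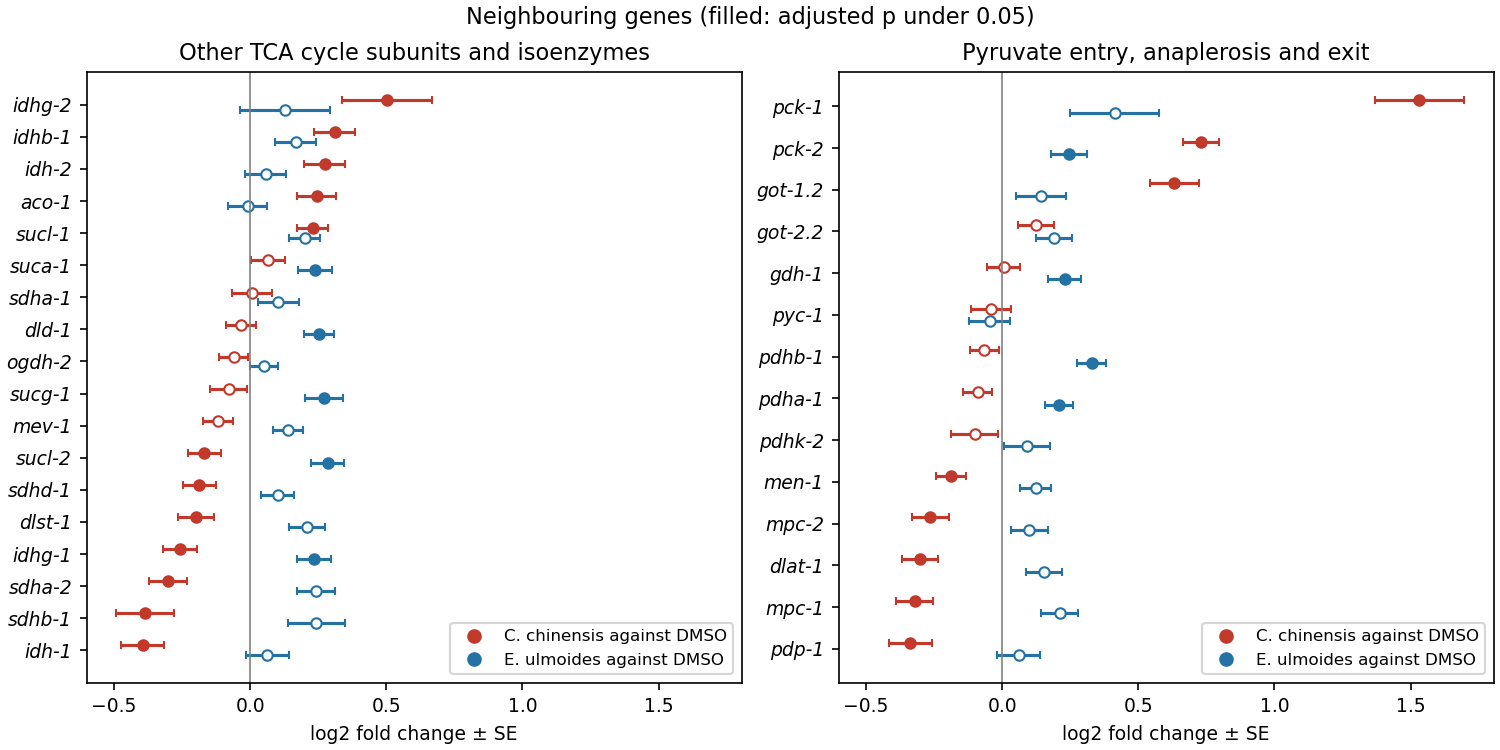
Log2 fold changes ± SE of 18 other TCA cycle genes (left) and 14 genes of pyruvate entry, anaplerosis and exit (right), red for C. chinensis and blue for E. ulmoides, each against DMSO on the main scaling, with filled points where the adjusted p was under 0.05. pck-1, pck-2 and got-1.2 lie at 0.63 to 1.53 with C. chinensis, and the other points lie between −0.39 and 0.50, where the sign of many turns with the scaling.

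Markers of tissues moved with the C. chinensis group too. The summed level of 11 intestine markers was 431 to 832 scaled FPKM in DMSO, 644 to 982 with E. ulmoides and 1694 to 2577 with C. chinensis, where 10 of 11 were higher at the adjusted p alone. Of all tested genes 30.2% were higher and 37.2% lower with C. chinensis at the adjusted p alone. For 11 body wall muscle markers the sums were 181 to 218.5, 209 to 243 and 298 to 409 in the same order, and 11 of 11 were higher with C. chinensis. For 7 neuron markers they were 362.5 to 393, 399 to 445 and 439 to 494, with 6 of 7 higher. Sums weigh abundant markers most. The median log2 fold change with C. chinensis was 0.53 for the intestine, 0.88 for the muscle and 0.41 for the neuron markers. The fold limit was passed by 5 of 11, 7 of 11 and 0 of 7. With E. ulmoides the neuron sums lay above the DMSO range. Only 2 of the 7 markers had a positive log2 fold change there, with a median of −0.02.

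The sums of 10 germline markers were 1895 to 2086 in DMSO, 1875 to 2310 with E. ulmoides and 1216 to 1625 with C. chinensis, where 10 of 10 were lower. Those of 8 oocyte markers were 2766 to 3037, 2628 to 3145 and 1706 to 2763, with 8 of 8 lower. The share of all tested genes that were lower was 37.2%. The germline and oocyte lists kept a negative median under all 13 settings, from −0.47 to −0.16 and from −0.42 to −0.11, and the muscle and intestine lists a positive one. The count of oocyte markers called lower dropped from 8 to 0 under at least 1 setting. The 8 hypodermis markers were 87.6 to 94.4, 84.3 to 102 and 69.5 to 108, and 4 of them (dpy-7, rol-6, bli-1 and che-14) averaged under 1 FPKM in every group. Of the 8, 4 were tested, and 1 was higher and 2 were lower with C. chinensis at the adjusted p alone. The neuron marker rgef-1 averaged under 1 FPKM in DMSO and E. ulmoides. No marker was at 0 in every library. The part of tissue composition in the differences of icl-1, aco-2, mdh-2 and the pck genes was not tested.

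Within the groups, the TCA enzymes varied together from library to library and icl-1 less so. Over the 15 libraries, after each group's mean was subtracted, Pearson's r between pairs of TCA enzymes was 0.49 to 0.93 with a median of 0.74. The highest was between idha-1 and fum-1 and the lowest between aco-2 and both cts-1 and fum-1. icl-1 correlated with the TCA enzymes at 0.16 to 0.55 with a median of 0.27, highest with mdh-2 and lowest with idha-1. These are descriptions over libraries that share their scaling factor, and a factor that is off in a library moves all of its genes together. In C. chinensis replicate 3 every TCA enzyme had its lowest value of that group, and this library had the highest scaling factor, 1.16. How far the correlations, and the genes most like the TCA mean below, rest on this library was not tested.

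Among 9175 tested genes with a mean FPKM of at least 5, those most like icl-1 in this sense were F19C7.1 (0.90), arrd-14 (0.88), F08D12.7 (0.88), acs-2 (0.88), an acyl-CoA synthetase of fatty acid oxidation, and F40F8.5 (0.86). Those most like the mean of the 7 TCA enzymes were H28O16.1 (0.97), the ATP synthase beta subunit atp-2 (0.95), the translation initiation factor inf-1 (0.94), the glycolytic phosphoglycerate kinase pgk-1 (0.94) and the sodium pump subunit eat-6 (0.92). The 5 genes most like icl-1 had log2 fold changes of 0.42 to 1.39 with C. chinensis, and those most like the TCA enzymes had −0.04 to 0.02.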

How the data were processed

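RNA-seq of 15 whole-worm libraries, 5 per group by their deposited labels, was analysed from a single table. The authors aligned reads with HISAT2 (version not given in the sources used here) to WBcel235 and deposited FPKM per gene and library. The counting tool and its strand setting are not given in the sources used here. Steps of the FPKM of 21-nucleotide genes gave each library's fragment total. For each gene a length was then sought that made its values whole fragments within 0.0001, with the Ensembl exon length tried first. Such a length was found for all 26686 genes above 0. Because lengths were searched for, the whole values alone do not test the totals.

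Genes reaching 1 FPKM in 5 or more libraries were kept. Their trimmed mean of M values, unweighted, with trims of 30% for M and 5% for A on either side, scaled the libraries, and log2(scaled FPKM + 0.5) was fitted in R 4.3.3 with limma 3.58.1 (lmFit, eBayes with trend) over all libraries. The Benjamini-Hochberg adjustment covered all 13743 genes kept. Ratios within a library used FPKM without a pseudocount. The scripts were tested on simulated data. Tables and figures used Python 3.11.15 with pandas 2.3.3, numpy 2.4.6 and matplotlib 3.10.9, and positions came from Ensembl 115.

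The named genes were the 8 members, any gene of the 2 neighbouring lists called with the fold limit in any comparison, and the 5 genes most correlated with icl-1 and with the TCA mean. Other genes of these lists and the ratios between pairs of genes were chosen for naming after their values were seen. The members and lists were chosen with earlier results of these data known. Alternatives changed the scaling, pseudocount, filter, fit and libraries. Those chosen after seeing the data were a voom fit of the fragments and scaling over all genes above 0 or over genes with a mean FPKM of at least 20 (the abundant genes).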

Additional observations from a re-analysis of the deposited data

Results flagged for a closer look

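Each member was examined in each group for a library far from the other 4, and 4 of 24 groups had a lowest or highest library set apart by Dixon's criterion for 5 values (a gap above 0.71 of the range). Chance sets apart about 1 in 20 such groups. aco-2 in DMSO replicate 1 was at 156.1 scaled FPKM, with the other 4 at 180.4 to 181.2. In C. chinensis replicate 3, fum-1 was at 127 scaled FPKM against 156.9 to 168.3 and mdh-1 at 175.6 against 197.2 to 202.1, and this library also carried the highest scaling factor, 1.16. mdh-1 in E. ulmoides replicate 5 was at 238.8 scaled FPKM against 210.8 to 218.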

How the results depend on the processing

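icl-1 stayed on the same side of the threshold under every setting in each comparison, and with the fold limit the only count of members that changed was that of higher calls between C. chinensis and DMSO, from 1 to 2 with scaling over genes of a mean FPKM of at least 20, under which aco-2 also passed. The small differences depended on how the libraries were scaled, and whether a given scaling is closer to the RNA content per worm was not tested. Depth does not limit the members, each with at least 5591 fragments in every library. Tests compare 5 libraries a group, labelled as biological replicates, at a single day and dose.

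Leaving out 1 library at a time moved icl-1 between 1.079 and 1.237 for C. chinensis against DMSO, between 0.1275 and 0.2356 for E. ulmoides against DMSO and between 0.9392 and 1.10 for C. chinensis against E. ulmoides. Counts with the fold limit stayed at 1 higher and 0 lower, 0 and 0, and 1 and 0 in these comparisons. At the adjusted p alone the count of higher members ranged from 2 to 3, from 0 to 2 and from 1 to 3, and that of lower members from 1 to 1, from 0 to 0 and from 3 to 5. The direction turned for cts-1 without C. chinensis replicate 3 (C. chinensis against DMSO, range −0.1004 to 0.00906) and for ogdh-1 (E. ulmoides against DMSO, range −0.01301 to 0.07998). Leaving out a library also changes the scaling of the others.

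For C. chinensis against DMSO the count of higher members at the adjusted p alone went from 3 to 7 with scaling over genes of a mean FPKM of at least 20, to 4 with no further scaling and with a mean FPKM of at least 5, and to 2 with no filter. That of lower members went from 1 to 0 with no further scaling, median-of-ratios scaling, quantile normalization, a mean FPKM of at least 5, only the 2 groups compared and scaling over abundant genes, and to 2 by the exact permutation test at an unadjusted p under 0.05. For E. ulmoides against DMSO the count of higher members went from 1 to 0 with those scalings, a mean FPKM of at least 5, no filter, scaling over all genes above 0 and voom, to 2 with only the 2 groups compared and to 6 by the permutation test. For C. chinensis against E. ulmoides the count of higher members went from 1 to 2 with median-of-ratios scaling, no filter, only the 2 groups, scaling over all genes above 0 and voom, to 3 with a mean FPKM of at least 5, to 4 with quantile normalization and to 5 with no further scaling or scaling over abundant genes, and that of lower members from 4 to 1 with a mean FPKM of at least 5 and to 0 with no further scaling, quantile normalization and scaling over abundant genes.

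Directions that turned for C. chinensis against DMSO were those of cts-1 (0.105 with no further scaling, 0.09839 with a mean FPKM of at least 5, 0.2274 with scaling over abundant genes), fum-1 (0.03101, 0.02442 and 0.1532 in that order, 0.02629 with quantile normalization), ogdh-1 (0.07374, 0.06714, 0.1958 and 0.1239), mdh-1 (0.1137, 0.1071, 0.236 and 0.09535, and 0.00347 with median-of-ratios scaling) and idha-1 (0.1044 with scaling over abundant genes and 0.01796 with quantile normalization). For E. ulmoides against DMSO they were those of ogdh-1 (−0.08712 with no further scaling, −0.02809 with a mean FPKM of at least 5, −0.05089 with scaling over abundant genes, −0.05485 with quantile normalization and −0.01052 with only the 2 groups compared), mdh-1 (−0.02655 with no further scaling, −0.009055 with quantile normalization) and mdh-2 (−0.03234 with no further scaling). For C. chinensis against E. ulmoides they were those of cts-1 (0.02618 with no further scaling, 0.1123 with scaling over abundant genes), fum-1 (0.02974) and idha-1 (0.02291) with scaling over abundant genes, mdh-1 (0.1402 with no further scaling, 0.07448 with a mean FPKM of at least 5, 0.2262 with scaling over abundant genes, 0.1044 with quantile normalization) and ogdh-1 (0.1609, 0.09523, 0.2467 and 0.1788 in that order). In these directions the filter on a mean FPKM of at least 5 acts through the genes that set the scaling factors.

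The deposited replicate numbers did not pair the libraries. Short library labels carry other numbers, which match across groups as the replicate numbers do for most pairs but not for all. Pairs given only by the short labels were not checked. The correlation of deviations from the group means between same-numbered libraries was −0.245 to 0.0612 over 15 pairs, with 0 above 0.1 and 0 best with its own number. With the replicate block icl-1 kept 1.183 and 0.971 past the threshold, the count of higher members at the adjusted p alone went from 1 to 0 for E. ulmoides against DMSO and from 1 to 2 for C. chinensis against E. ulmoides, and the other counts of members stayed as they were.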
